A study of Mus musculus with 10 samples.

Results

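The regions described here are promoters that carried the histone mark H3K4me3 in Oct4+ nEnd and in DP nEnd but not in Pdgfra+ nEnd, according to the consensus peak lists of these 3 populations. Overlapping consensus peaks of the 3 lists were merged into 9134 regions, and 8494 of these overlapped a promoter window, which reached from 1000 bp before a protein-coding transcription start site (TSS) to 100 bp after it. Of the 8494 promoter regions, 332 (3.91%) overlapped the Oct4+ and the DP lists and not the Pdgfra+ list, and they held promoters of 371 of 21842 protein-coding genes (1.70%). A further 48 regions of the same kind lay at no promoter. The regions were chosen by measured values, the presence or absence of a peak in each population, so their presence in the lists is a description and not a result. Of the other promoter regions, 6322 were in all 3 lists, 907 in the DP and Pdgfra+ lists, 538 in the Oct4+ list alone, 186 in the DP list alone, 177 in the Pdgfra+ list alone and 32 in the Oct4+ and Pdgfra+ lists.

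nEnd is naïve extra-embryonic endoderm, a culture derived from mouse embryonic stem cells that models the primitive endoderm (PrE). Untreated cells of 1 OCT4-mCherry reporter line were separated by flow cytometry on OCT4-mCherry and on PDGFRA at the cell surface, labelled with APC. Cells with the reporter alone are Oct4+ nEnd, cells with the surface receptor alone are Pdgfra+ nEnd, and double-positive cells are DP nEnd. An antibody to H3K4me3 was used for CUT&Tag, in which the antibody tethers the Tn5 transposase to the mark, and the libraries analysed were 4 for Oct4+ nEnd, 3 for DP nEnd and 3 for Pdgfra+ nEnd. All groups come from the same line, so no value here speaks to other lines.

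H3K4me3 is deposited at promoters by the SET1 and MLL methyltransferases and is found at most active promoters, above all those rich in CpG dinucleotides. Peaks that stretch over many kilobases are known from genes that define a cell's identity. In the blastocyst, *Pou5f1* (which encodes OCT4), *Nanog* and *Sox2* sustain the epiblast (Epi), while PDGFRA is a receptor of the PrE.

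The libraries held 3477 to 10545 peaks each, called against IgG, and their sequencing depth is unknown. Oct4+ replicate 3 had the fewest peaks (3477) and the Oct4+ list was found to rest on replicates 1, 2 and 4. The largest library was Pdgfra+ replicate 1, with 10545 peaks against 6510 and 7800 in replicates 2 and 3. The sort markers followed the labels: the window of *Pou5f1* held a peak in 4 of 4 Oct4+, 3 of 3 DP and 0 of 3 Pdgfra+ libraries, and that of *Pdgfra* in 1 of 4, 3 of 3 and 3 of 3. Signal was not scaled between libraries, so peaks were ranked within their own library, and a percentile of 100 is the peak with the highest total signal (coverage summed over the peak). The median height of a peak (its highest coverage) was 107 to 144 in the DP libraries and 22 to 59 in the Oct4+ libraries. Higher and lower therefore refer to rank within a library and not to the level of H3K4me3. Where several peaks of a library fell in a region, the one with the highest total signal was used.

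The promoter sequences of 5 genes at these regions are shown to let their CpG content be read beside the H3K4me3 values. Each is the stretch of 250 bases before a RefSeq TSS (GRCm38.p6), written 5′ to 3′ on the gene's strand, with CpG dinucleotides in capitals. The RefSeq table held promoters of 270 of the 371 genes. *Nanog* (chr6:122707239-122707488, plus strand) encodes a homeobox factor of naïve pluripotency, *Nodal* (chr10:61417722-61417971, plus strand) a TGF-β family ligand, *Zfp42* (chr8:43307010-43307259, minus strand) the zinc finger protein REX1, *Sox2* (chr3:34649745-34649994, plus strand) the HMG-box partner of OCT4, and *Vegfc* (chr8:54077282-54077531, plus strand) a ligand of VEGF receptors.
Nanog: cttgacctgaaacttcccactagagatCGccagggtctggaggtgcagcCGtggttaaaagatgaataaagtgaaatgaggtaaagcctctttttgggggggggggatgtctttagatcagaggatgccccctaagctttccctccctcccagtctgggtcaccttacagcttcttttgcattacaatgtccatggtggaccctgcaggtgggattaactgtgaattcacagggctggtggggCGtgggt
Nodal: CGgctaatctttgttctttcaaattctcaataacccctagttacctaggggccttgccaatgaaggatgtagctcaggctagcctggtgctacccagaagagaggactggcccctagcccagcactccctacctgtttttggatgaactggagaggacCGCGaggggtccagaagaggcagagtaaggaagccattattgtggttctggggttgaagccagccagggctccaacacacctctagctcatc
Zfp42: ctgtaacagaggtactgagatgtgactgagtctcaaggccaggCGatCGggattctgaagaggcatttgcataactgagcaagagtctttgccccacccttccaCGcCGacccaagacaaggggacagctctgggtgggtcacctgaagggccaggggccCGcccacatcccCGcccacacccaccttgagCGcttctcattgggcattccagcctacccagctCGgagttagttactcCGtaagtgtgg
Sox2: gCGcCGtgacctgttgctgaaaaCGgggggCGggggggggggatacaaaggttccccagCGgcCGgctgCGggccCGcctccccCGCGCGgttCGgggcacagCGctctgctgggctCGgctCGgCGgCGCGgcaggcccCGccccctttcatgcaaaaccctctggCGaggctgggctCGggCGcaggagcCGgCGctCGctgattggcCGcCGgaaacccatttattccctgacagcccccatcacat
Vegfc: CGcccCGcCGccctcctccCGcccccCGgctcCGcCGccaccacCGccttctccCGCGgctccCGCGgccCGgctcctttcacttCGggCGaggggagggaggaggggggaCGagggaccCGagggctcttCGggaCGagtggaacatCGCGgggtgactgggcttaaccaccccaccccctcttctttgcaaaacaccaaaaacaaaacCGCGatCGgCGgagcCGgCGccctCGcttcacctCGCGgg
*Nanog* and *Nodal* held 3 CpG each in this stretch and *Zfp42* 9, whereas *Sox2* held 27 and *Vegfc* 30. The observed to expected ratio of CpG was 0.18 for *Nanog*, 0.17 for *Nodal*, 0.42 for *Zfp42*, 0.83 for *Sox2* and 0.96 for *Vegfc*. All 5 carried H3K4me3 in every Oct4+ library, so the set held CpG-poor as well as CpG-rich promoters.

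Most of the 332 regions were not free of H3K4me3 in Pdgfra+ nEnd. Pdgfra+ replicate 1 had a peak at 303 of them (91.3%), and replicates 2 and 3 had none. A list needed a peak in at least 2 of its libraries, so 1 Pdgfra+ library with a peak was not enough to enter it. The percentile of total signal at the 303 regions in Pdgfra+ replicate 1 ranged from 0.06 to 51.9 with a median of 22.4, and 2 regions reached the 50th percentile. In the regions of all 3 lists the same library had a median of 67.6. The 29 remaining regions, with 32 genes, had no peak in any Pdgfra+ library.

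In the populations that defined them, the regions were present in all libraries of the list at 100 of 332. Oct4+ replicates 1 and 2 had a peak at all 332 and replicate 4 at 156 (47.0%). DP replicate 2 had a peak at all 332, replicate 1 at 315 (94.9%) and replicate 3 at 192 (57.8%). Both Oct4+ replicate 4 and DP replicate 3 lacked a peak at 91 regions. With 2 libraries left for a population, its list requires both, and the number of regions then changed with the library left out. It was 159 without Oct4+ replicate 1, 156 without Oct4+ replicate 2, 193 without DP replicate 1 and 175 without DP replicate 2, and it was 332, 315 and 353 without Oct4+ replicate 4, DP replicate 3 and Pdgfra+ replicate 2. It rose to 1120 without Pdgfra+ replicate 1 and to 1095 without Pdgfra+ replicate 3.

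**Figure D1:**
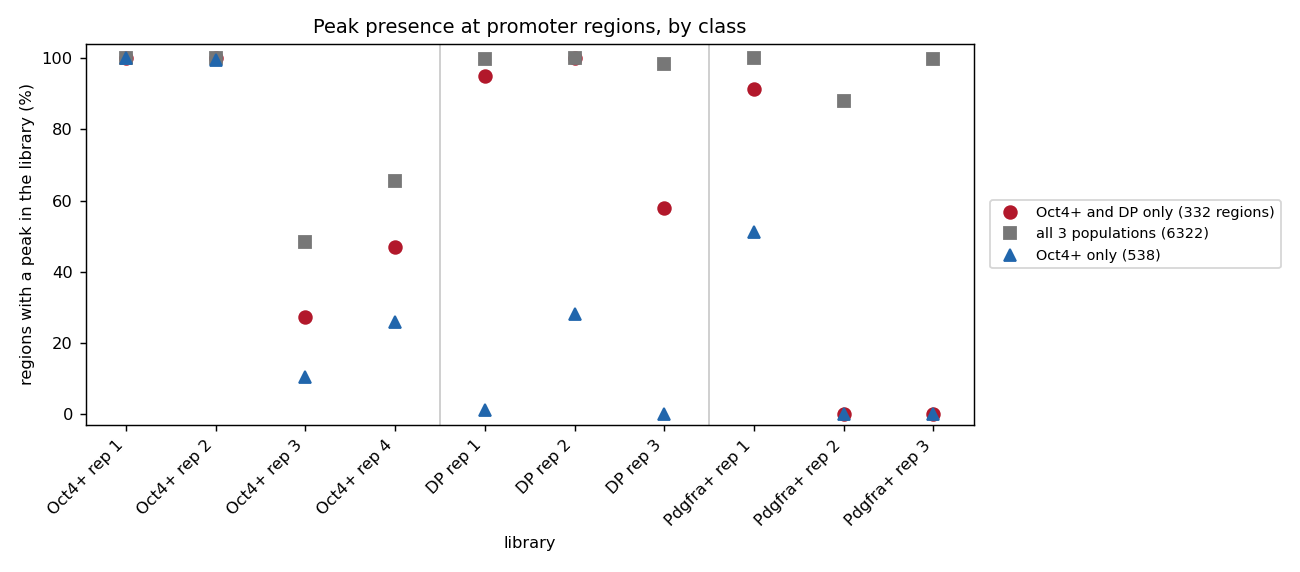
Share of promoter regions with a peak (y axis, %) in each of the 10 libraries (x axis), for regions in the Oct4+ and DP lists only (circles, 332 regions), in all 3 lists (squares, 6322) and in the Oct4+ list only (triangles, 538). At the regions of the Oct4+ and DP lists only, the share was 91.3% in Pdgfra+ replicate 1 and 0% in Pdgfra+ replicates 2 and 3.

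Oct4+ replicate 3 took no part in the Oct4+ list and so gives a readout that the choice of regions did not use. It had a peak at 91 of the 332 regions (27.4%, exact binomial 95% interval 22.7 to 32.5, counting error only). The share was 48.4% at the regions of all 3 lists and 10.4% at those of the Oct4+ list alone. Among the 29 regions with no Pdgfra+ peak, 25 had a peak in Oct4+ replicate 3 (86.2%, interval 68.3 to 96.1), and among the other 303 it was 66 (21.8%, interval 17.3 to 26.9). This is 1 library, so the differences between these shares were not tested.

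The regions ranked higher in Oct4+ nEnd than in DP nEnd. Over the regions with a peak, the median percentile was 43.5, 32.9, 49.1 and 44.2 in Oct4+ replicates 1 to 4 and 9.89, 16.3 and 8.22 in DP replicates 1 to 3. In the DP libraries 81.0% to 85.7% of their peaks lay under the 25th percentile, against 8.04% to 17.5% at the regions of all 3 lists. None of their peaks reached the 90th percentile there, against 11.8% to 13.5%. At the regions of the DP list alone, the share under the 25th percentile was 94.4%, 91.9% and 88.5% in DP replicates 1 to 3. At those of the DP and Pdgfra+ lists only it was 56.9%, 46.2% and 59.6%. A low rank in DP nEnd was thus not particular to regions shared with the Oct4+ list. At the regions described here, the share under the 25th percentile was 25.6%, 38.0%, 17.6% and 35.9% in Oct4+ replicates 1 to 4. It was 10.7%, 17.6%, 24.1% and 22.5% at the regions of all 3 lists. At or above the 90th percentile were 10.2%, 7.5%, 15.4% and 14.7% of their peaks in Oct4+ replicates 1 to 4, against 13.2%, 12.0%, 10.5% and 10.9% at the regions of all 3 lists, so the share was lower in replicates 1 and 2 and higher in replicates 3 and 4.

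To test this difference, the percentile was recomputed among the 6654 promoter regions that were in both the Oct4+ and the DP lists, and Oct4+ replicates 1, 2 and 4 were compared with DP replicates 1, 2 and 3 with limma. Of all 6654 regions, 17.5% (1164) were higher in Oct4+ nEnd and 17.2% (1144) were higher in DP nEnd at a Benjamini-Hochberg adjusted p under 0.05. Of the 332 regions, 207 (62.3%) were higher in Oct4+ nEnd and 0 in DP nEnd, where 1 had an unadjusted p under 0.05 toward DP nEnd. The median difference was 22.2 percentile points for the 332 regions and -0.06 for all regions tested. In 245 of the 332 (73.8%) every Oct4+ library was above every DP library, against 25.8% of all regions tested. A region low in DP nEnd can differ mainly upward, and 313 of the 332 had a DP mean under the 25th percentile. Of these 313 regions, 190 (60.7%) were higher in Oct4+ nEnd, against 273 (20.1%) of the 1360 other regions under this limit. Missing peaks shared 1 tied percentile per library, 17.7 in Oct4+ replicate 4 and at most 1.83 elsewhere. At the 176 regions without a peak in Oct4+ replicate 4, that library was therefore ranked above DP peaks under the 17.7 percentile. With all missing peaks set to 0 instead, every Oct4+ library was above every DP library at 149 of the 332 regions (44.9%, against 21.8% of all regions tested), 143 regions (43.1%, against 14.4% of all regions tested) were higher in Oct4+ nEnd and 1, at *Fgfr2*, was higher in DP nEnd (15.5% of all). Restricted to the 100 regions with a peak in all 6 libraries, 81 were higher in Oct4+ nEnd, against 17.1% of the 4231 regions tested in this way.

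**Figure D2:**
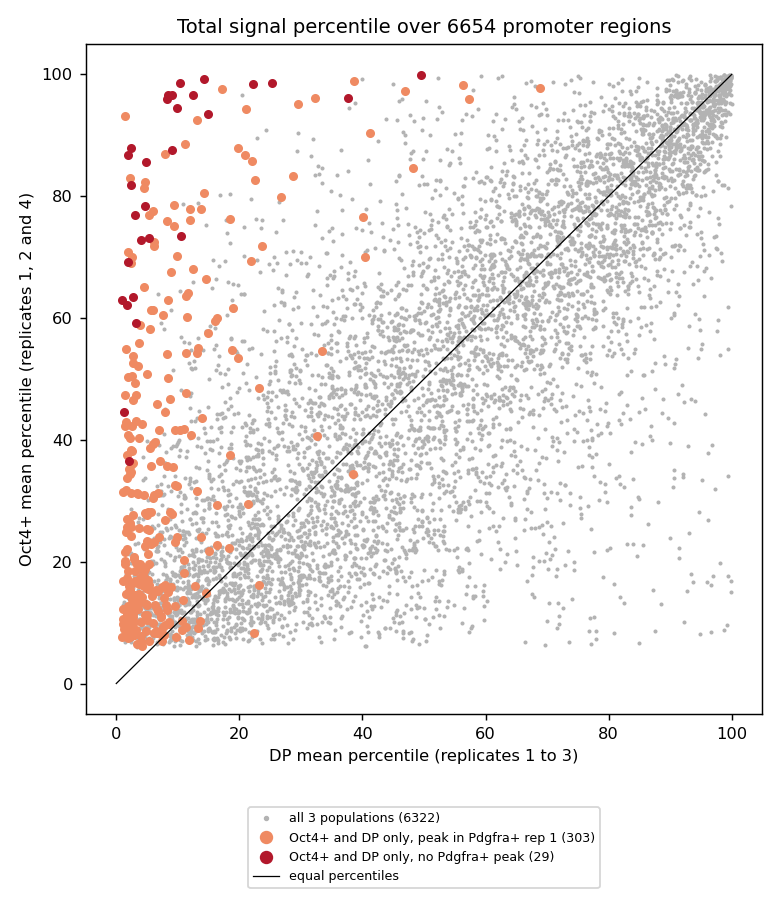
Mean percentile of total signal over DP replicates 1 to 3 (x axis) and over Oct4+ replicates 1, 2 and 4 (y axis) for the 6654 promoter regions in both lists, with the 332 regions coloured by whether Pdgfra+ replicate 1 had a peak. The 29 regions with no Pdgfra+ peak all lie above the line of equal percentiles.

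The 29 regions with no peak in any Pdgfra+ library ranked higher in Oct4+ nEnd than the other 303. They were set apart by this absence after the values were seen. Their median percentile was 91.1, 90.5, 82.5 and 78.3 in Oct4+ replicates 1 to 4 and 7.33, 14.9 and 11.6 in DP replicates 1 to 3. All 29 were higher in Oct4+ nEnd by limma, with a median difference of 73.9 points, against 178 of the other 303 (58.7%), whose median difference was 18.2, and 17.5% of all regions tested. The fit used libraries whose peaks defined the regions, and low ranks in DP nEnd left little room for the other direction. These counts are therefore a description and not independent evidence. The median length of the 29 was 8923 bp, and that of the 303 was 4853 bp. The genes included the pluripotency factors *Nanog*, *Sox2* and *Esrrb*, the TGF-β family ligands *Nodal*, *Gdf3* and *Inhbb* (the activin βB subunit), the Wnt pathway genes *Notum* (a secreted Wnt deacylase) and *Fzd10* (a Frizzled receptor), the metabolic enzymes *Tdh*, *Bcat1* and *Pfkp*, the junction genes *Cldn4* and *Jam2*, the growth factor *Vegfc*, and *Lemd1*, *AC124108.1*, *Arid5b*, *Cobl*, *Dmtn* (in 2 regions), *Klf12*, *Oxr1*, *Stmn2*, *Bnc2*, *Grik3*, *Mettl27*, *Gpr27*, *Pcsk6*, *Tenm4*, *Gm45717*, *Ifitm2* and *Ifitm5*. Their presence in the DP list depended on the number of peaks per library. With the 3477 peaks of highest total signal from each library, 26 of the 29 were in the Oct4+ list alone, among them *Nanog*, *Sox2*, *Nodal*, *Gdf3* and *Tdh*, 2 were in no list, and only *Esrrb* stayed in both.

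**Figure D3:**
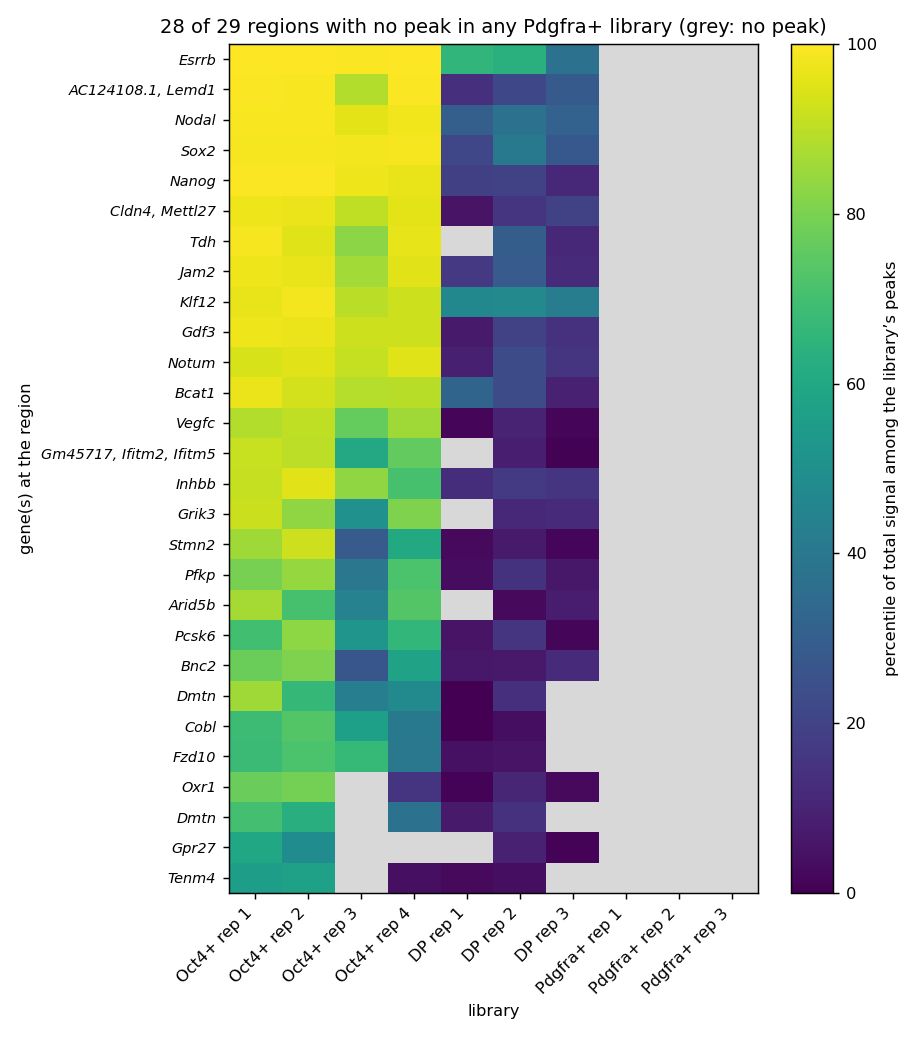
Percentile of total signal (colour, 0 to 100) at 28 of the 29 regions with no peak in any Pdgfra+ library (rows, named by gene) in the 10 libraries (columns), with grey for no peak. From *Esrrb* to *Bcat1* the upper 12 rows have a mean at or above the 90th percentile over Oct4+ replicates 1, 2 and 4, and in every row each DP value lies below each Oct4+ value where both have a peak.

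Of the pluripotency factors, the *Nanog* region (chr6:122700941-122716316) was at the 99.3, 99.3, 97.6 and 96.8 percentile in Oct4+ replicates 1 to 4. In DP replicates 1 to 3 it was at 18.9, 19.6 and 11.5. The difference was 88.3 ± 2.68 points (SE, n = 3 and 3, limma adjusted p = 3.58e-05), and all Oct4+ libraries were far above all DP libraries. The *Sox2* region (chr3:34647291-34659275) was at 98.5, 98.7, 98.4 and 98.5 in Oct4+ nEnd and at 21.2, 40.4 and 27.7 in DP nEnd, a difference of 76.2 ± 3.82 points (limma adjusted p = 8.24e-05). The *Esrrb* region (chr12:86465616-86509859) was the longest of the 332, at 44244 bp. *Esrrb* encodes an orphan nuclear receptor that acts in naïve pluripotency. Its peak was at or above the 99.2 percentile in all 4 Oct4+ libraries and at 66.0, 63.3 and 37.4 in DP nEnd (difference 50.4 ± 6.75, limma adjusted p = 0.00243). By highest coverage, the tallest point of a peak, *Esrrb* was at 0.84, 3.2 and 1.11 in DP nEnd and the difference was 93.05 points. Its width was 44034, 27241, 14176 and 27354 bp in Oct4+ replicates 1 to 4 and 18505, 15022 and 9070 bp in DP replicates 1 to 3, so the peaks of all 3 DP libraries were shorter than those of Oct4+ replicates 1, 2 and 4.

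*Klf2*, *Zfp42*, *Utf1*, *Tdh*, *Gdf3* and *Tdgf1* were further genes of the pluripotency list, of which 10 of 32 genes (31.2%) lay at these regions, against 1.70% of all protein-coding genes. The list was drawn up with earlier results of these data known, so its share is not independent evidence. *Klf2*, a Krüppel-like factor, was at 95.7, 95.8, 92.8 and 94.7 in Oct4+ nEnd and at 41.0, 40.8 and 30.4 in DP nEnd (difference 65.7 ± 2.85, limma adjusted p = 5.87e-05), and Pdgfra+ replicate 1 had a peak at 24.2. *Zfp42* was at 98.0, 97.9, 94.6 and 97.6 in Oct4+ nEnd and at 36.6 and 33.9 in DP replicates 1 and 2, with no peak in DP replicate 3 (difference 80.6 ± 6.78, limma adjusted p = 0.000434). Its Pdgfra+ replicate 1 peak was at 1.07, close to the bottom of that library. *Utf1*, a chromatin-associated factor of stem cells, varied between the DP libraries, at 74.9, 31.5 and 30.2, and was at 97.6 or above in Oct4+ nEnd (difference 60.3 ± 13.1, limma adjusted p = 0.0147, and not past the threshold without DP replicate 3). Its region had a peak in Pdgfra+ replicate 1, but its own promoter window had none in 3 of 3 Pdgfra+ libraries.

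*Tdh*, the threonine dehydrogenase of mouse embryonic stem cells, lay in a region of 20324 bp. It was at 98.6, 95.2, 82.5 and 96.1 in Oct4+ nEnd, had no peak in DP replicate 1 and was at 29.6 and 11.2 in DP replicates 2 and 3 (difference 87.5 ± 4.41, limma adjusted p = 8.24e-05). *Tdgf1*, the Nodal co-receptor Cripto, shared a region with *Lrrc2* and had the largest difference of all 332 by total signal, 91.7 ± 3.30 points (limma adjusted p = 3.82e-05). By highest coverage its difference was 47.2 points, below that of *Nanog* (93.6 points). That region was at 97.7, 89.4, 93.0 and 92.9 in Oct4+ nEnd and at 4.17 and 0.44 in DP replicates 1 and 2. The *Tdgf1* window itself held a peak in 4 of 4 Oct4+ and 1 of 3 DP libraries, so its place among the 332 rests on the merged region that it shares with *Lrrc2*.

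*Pou5f1* was not among the 371 genes, although no Pdgfra+ library had a peak in its window. Its Oct4+ consensus peak (chr17:35500259-35520132) ran on over the neighbouring promoters, where the Pdgfra+ list had a peak (chr17:35514633-35519342), and the merged region counted as present in all 3 lists. Marked gene by gene without merging, 385 genes were in the Oct4+ and DP lists and not in the Pdgfra+ list, and 343 of them lay at the 332 regions. Of the rest of the pluripotency list, 13 genes lay in regions of all 3 lists, 7 in regions of the Oct4+ list alone (among them *Nr5a2*, *Prdm14* and *Tfcp2l1*) and 2 in none.

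Ligands of the Nodal and BMP pathways and the co-receptor *Tdgf1* formed the next group, with 4 of 17 listed genes (*Nodal*, *Gdf3*, *Tdgf1* and *Bmp4*), against 1.70% of all protein-coding genes. *Gdf3* and *Tdgf1* are in the pluripotency list as well. *Nodal* (chr10:61413964-61424709) was at 98.9, 99.1, 95.7 and 98.0 in Oct4+ nEnd and at 30.4, 37.9 and 31.6 in DP nEnd (difference 73.3 ± 2.62, limma adjusted p = 3.82e-05). *Gdf3* was at 97.5, 97.0, 92.5 and 92.3 in Oct4+ nEnd and at 7.36, 19.8 and 14.2 in DP nEnd (difference 87.6 ± 3.14, limma adjusted p = 3.82e-05). *Bmp4* was at 97.2, 97.4, 89.5 and 93.3 in Oct4+ nEnd and at 43.1, 45.4 and 31.5 in DP nEnd (difference 63.9 ± 2.89, limma adjusted p = 6.13e-05). In all 3 the Oct4+ libraries lay above the DP libraries, as they did at 25.8% of all regions tested, and the window of *Bmp4* itself had a peak in 0 of 3 Pdgfra+ libraries although its region had one. The receptors and SMAD proteins of the list were instead in all 3 consensus lists (*Acvr1b*, *Acvr2a*, *Acvr2b*, *Bmpr1a*, *Smad2*, *Smad3*, *Smad4* and *Smad7*), and the Nodal antagonists *Lefty1* and *Lefty2* were in the Oct4+ list alone.

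In the FGF list 3 of 14 genes lay at these regions, against 1.70% of all protein-coding genes. *Spry4*, a feedback inhibitor of ERK signalling, had the highest of the 332 lowest percentiles over the 6 libraries of the Oct4+ and DP lists (72.2). It was at 72.3, 72.2 and 76.0 in DP nEnd and at 98.4, 98.2, 84.4 and 96.4 in Oct4+ nEnd (difference 28.9 ± 3.10, limma adjusted p = 0.00103). By highest coverage, *Spry4* ranked lower in the DP libraries than by total signal, at the 13.1, 22.9 and 25.5 percentile, and its difference was 59.5 points. Its unscaled highest coverage was 68, 99 and 91 in DP replicates 1 to 3 and 78, 72, 24 and 52 in Oct4+ replicates 1 to 4. *Etv4*, an ETS factor induced by ERK, was at 75.8, 67.2, 15.2 and 31.0 in Oct4+ nEnd and at 39.4, 24.1 and 15.5 in DP nEnd (difference 42.7 ± 6.6, limma adjusted p = 0.00421, and 17.2 points and not past the threshold among regions with a peak in all 7 libraries). As ranked among all peaks, *Etv4* overlapped between the groups, and its percentile in Oct4+ replicate 3 was below those of all DP libraries. *Fgfr2*, the FGF receptor linked to the PrE, leaned the other way, at 3.39 and 10.8 in Oct4+ replicates 1 and 2 and at 21.9, 38.1 and 30.0 in DP nEnd (difference -14.1 ± 5.38, limma adjusted p = 0.0885, and -0.73 by highest coverage). Its region (chr7:130261755-130267372) is an alternative promoter, and another *Fgfr2* promoter lay in a region of all 3 lists. In all, 20 of the 371 genes had another promoter in the Pdgfra+ list.

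Of the LIF, gp130 and STAT3 list only *Gbx2*, a homeobox target of STAT3, was found (1 of 14), with a difference of 33.3 ± 8.89 points (limma adjusted p = 0.0299) that missed the threshold under 7 of the alternatives tried for it. The trophectoderm list gave *Eomes* alone (1 of 12) and the fibroblast list *Twist1* alone (1 of 10). *Eomes* had a peak in 2 of 4 Oct4+ libraries, at 42.7 and 47.9, and was at 33.2, 33.8 and 19.8 in DP nEnd (difference 8.09 ± 6.18, limma adjusted p = 0.352). *Twist1* ranked near the bottom, at 1.04 and 0.84 in Oct4+ nEnd and at 12.9 and 13.1 in DP nEnd. Its difference was 1.89 ± 5.33 (limma adjusted p = 0.808) with the tied percentile of the missing peaks and -3.4 with these at 0, so it has no stable sign. The lists of DPPA and germline genes (0 of 18), DNA methylation enzymes (0 of 10), PrE markers (0 of 18), mesoderm markers (0 of 8) and 2C-like markers (0 of 7 annotated) had no gene at these regions. Of the 18 PrE markers, 8 lay in regions of all 3 lists and 9 in regions of the DP and Pdgfra+ lists.

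**Figure D4:**
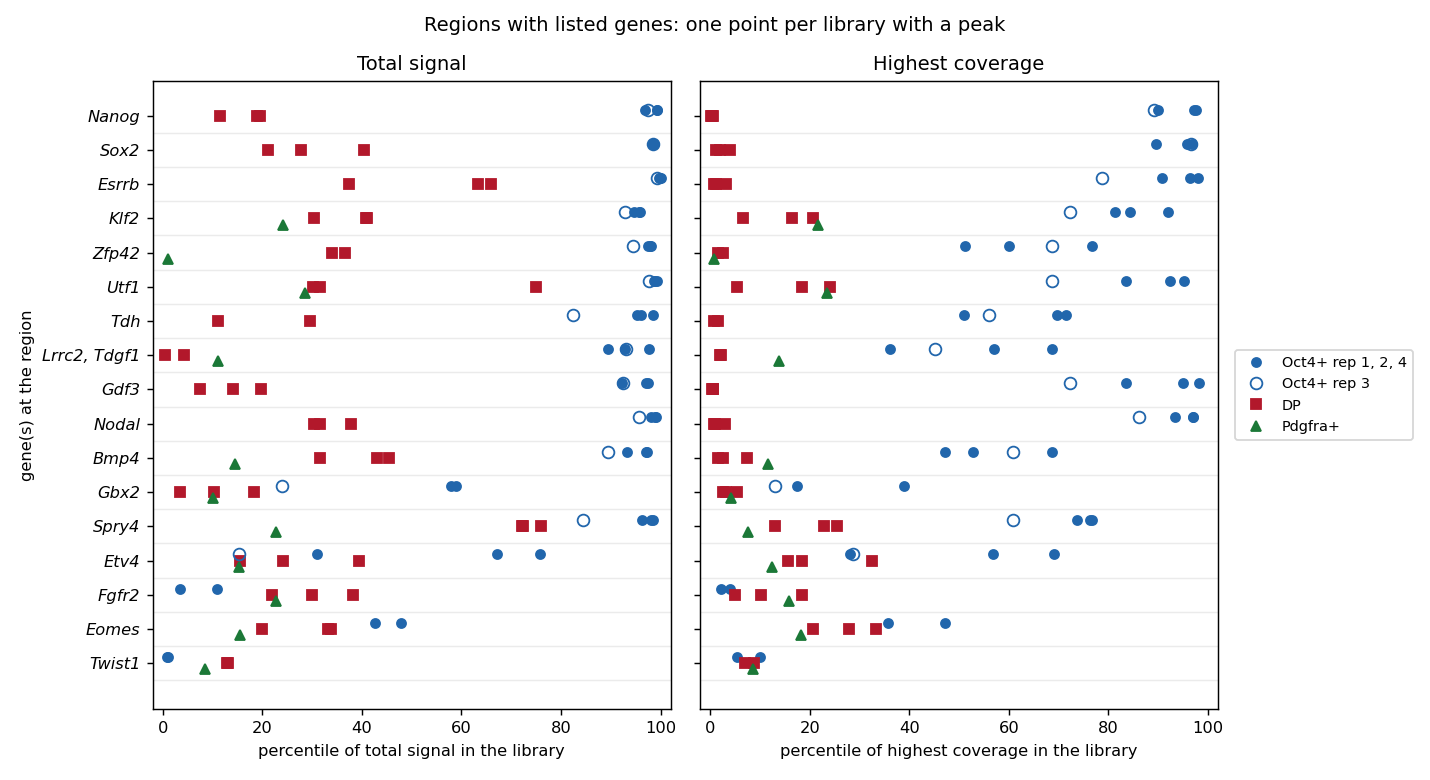
Percentile within the library of total signal (left) and of highest coverage (right) at 17 regions with listed genes, with 1 point for each library that has a peak. Open circles are Oct4+ replicate 3. From *Nanog* to *Bmp4* the Oct4+ libraries lie at or above the 82.46 percentile of total signal, and the DP points for *Nanog* lie at or under the 0.52 percentile of highest coverage.

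The 8 regions with the highest rank in their weakest Oct4+ or DP library included *Spry4* and, outside the lists, *Ltbp4* (a latent TGF-β binding protein), *B3gnt7* (a glycosyltransferase), *Marcks* (a protein kinase C substrate), *Klf12* (a Krüppel-like factor), *Slc7a7* (an amino acid transporter) and *Tpd52*. From *Ltbp4* to *Tpd52*, the lowest percentiles over the 6 libraries of the Oct4+ and DP lists were 48.0, 47.4, 43.8, 42.4, 42.2 and 38.3. These 6 were all higher in Oct4+ nEnd by limma, by 36.4 to 58.5 points, as were 17.5% of all regions tested. By highest coverage, *Ltbp4* (30.6 points) and *Slc7a7* (26.3 points) did not pass the threshold. Except for *Klf12*, they had a peak in Pdgfra+ replicate 1, at the 42.8 percentile for *Ltbp4* and between 11.1 and 25.01 for the others.

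The 6 largest differences in total signal percentile among the 332 were at *Lrrc2* and *Tdgf1* (91.7), *Nanog* (88.3), *Cldn4* and *Mettl27* (88.3), *Gdf3* (87.6), *Tdh* (87.5) and *Vegfc* (85.6). *Cldn4*, a tight junction protein, shared its region with *Mettl27* and was at 97.3, 97.1, 90.6 and 95.8 in Oct4+ nEnd and at 5.09, 15.4 and 19.4 in DP nEnd. *Vegfc* was at 88.5, 90.5, 76.2 and 85.7 in Oct4+ nEnd and at 1.5, 9.61 and 1.32 in DP nEnd. Toward DP nEnd none passed the threshold, and 11 of the 332 had a difference at or below 0.

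Among the other regions with no Pdgfra+ peak, singled out after their values were seen, *Inhbb* was at 91.1, 95.4, 83.4 and 70.7 in Oct4+ replicates 1 to 4 and at 12.96, 16.98 and 14.9 in DP replicates 1 to 3 (difference 78.5 ± 4.56, limma adjusted p = 0.000135). *Notum* was at 93.8, 95.7, 91.3 and 95.3 in Oct4+ nEnd and at 8.67, 23.2 and 15.6 in DP nEnd (difference 84.6 ± 3.29, limma adjusted p = 4.41e-05). Both thus stood high in every Oct4+ library and low in every DP library. *Gpr27*, an orphan receptor, had the smallest difference of the 29, at 34.5 ± 8.04 points (limma adjusted p = 0.0187). It was at 60.2 and 48.6 in Oct4+ replicates 1 and 2, with no peak in replicates 3 and 4, and at 9.09 and 1.11 in DP replicates 2 and 3. With missing peaks set to 0, 28 of the 29 regions were higher in Oct4+ nEnd, against 14.4% of all regions tested.

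A high rank in Oct4+ nEnd was not particular to these 29 regions. A mean at or above the 90th percentile over Oct4+ replicates 1, 2 and 4 was reached by 12 of the 29 and also by 12 of the 303 regions with a peak in Pdgfra+ replicate 1. The latter included *Spry4*, *Ltbp4*, *B3gnt7*, *Slc7a7*, *Bmp4*, *Utf1*, *Zfp42*, *Klf2*, the region of *Lrrc2* and *Tdgf1*, and, named after their values were seen, *Abcc4* (a membrane transporter) and *Cbx7* (a Polycomb protein). Their percentile in Pdgfra+ replicate 1 ran from 1.07 at *Zfp42* to 42.8 at *Ltbp4*. The 2 regions above the 50th percentile in that library were at *Chd2* (51.9), a chromatin remodeller, and *Myadm* (51.8). *Myadm* was at 78.7, 78.5 and 44.1 in Oct4+ replicates 1, 2 and 4, had no peak in replicate 3, and was at 54.8, 51.1 and 37.0 in DP nEnd. These ranks among all peaks of a library overlapped between the groups, whereas those among the 6654 tested regions did not (difference 29.6 ± 5.12, limma adjusted p = 0.00637).

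In DP nEnd the peaks at the 29 regions were long and low. Highest coverage was under the 5th percentile of the library in every DP library with a peak at 26 of the 29 regions, and under the 10th at all 29. This held for 133 of the 332 regions at the 10th percentile (40.1%), and for 0.93% of the regions of all 3 lists. The median percentile of highest coverage in DP replicates 1 to 3 was 0.84, 1.65 and 0.73 at the 29 regions. At the 332 regions it was 8.12, 11.1 and 6.18, and at the regions of the DP list alone 8.77, 11.6 and 5.8. Low peaks in DP nEnd were thus not particular to the 332 regions. At *Nanog* the highest coverage was at the 0.25, 0.52 and 0.30 percentile in DP nEnd and at 97.2, 97.5, 89.1 and 89.99 in Oct4+ nEnd. Its DP peaks were 7905, 6452 and 5432 bp wide, where the median peak of the DP libraries was 3581 to 4222 bp. At the 29 regions the median width in DP nEnd was 5194.5, 5747 and 5015.5 bp. Total signal sums over the length of a peak, so these peaks ranked higher by total signal than by their tallest point. The lowest total signal of a called peak was 50231, 53198 and 51408 in DP replicates 1 to 3. A peak of low coverage reaches this only with length, so the shape is in part given by how the regions were chosen. By highest coverage, 97 of the 332 regions (29.2%) were higher in Oct4+ nEnd by limma against 6.57% of all regions tested, and 24 of the 29 were.

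The regions were 2681 to 44244 bp long with a median of 5004.5 bp, between the 4023.5 bp of the Oct4+ list alone and the 5626 bp of all 3 lists. By median peak width over the libraries with a peak, the 6 widest were *Esrrb* (18505 bp), *Tdh* (13274 bp), *Ltbp4* (13269.5 bp), *AC124108.1* and *Lemd1* (11020 bp), *B3gnt7* (10870 bp) and *Spry4* (10620 bp). Of these, *Esrrb*, *Tdh* and the *Lemd1* region had no Pdgfra+ peak.

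The smallest overlaps with a promoter window were 848, 855 and 885 bp, at *Clec11a*, *Commd8* and *Stmn2*, so none of the 332 was close to the limit of 1 bp. Of the regions in the Oct4+ and DP lists only but at no promoter, the nearest lay 288 bp from a window of *Hist1h1d*. The next were 4687 bp from *Zfp184* and 5628 bp from *Clstn3*. On the side of the Pdgfra+ list, 783 regions of all 3 lists had a peak in exactly 2 of 3 Pdgfra+ libraries, and those with the lowest mean percentile were at *Cux2* (8.78) and *Xylt1* (8.88). Of the 332, 6 held 17 replication-dependent histone genes, whose near-identical copies can share reads, and these are uncertain.

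CpG content was computed for the 250 bases before every protein-coding TSS in the GRCm38 genome, with 1 value for each gene. Of the 371 genes, 230 (62.0%) had an observed to expected ratio of at least 0.6, against 82.1% of genes at regions of all 3 lists, 53.3% at the Oct4+ list alone, 67.0% at the DP and Pdgfra+ lists and 40.2% of all genes. Among the 32 genes with no Pdgfra+ peak it was 15 (46.9%), and 10 of the 32 (31.2%) were under 0.3, among them *Nanog*, *Nodal*, *Gdf3*, *Cldn4* and *Ifitm2*. Of the 339 other genes, 24 (7.1%) were under 0.3, and of all genes 33.5%. The 7 letters ATGCAAA, the core of the octamer bound by OCT4, were searched on both strands and lay before 24 of the 371 genes (6.47%), against 6.88% of all genes, 4.04% of genes at regions of all 3 lists and 6.29% at the Oct4+ list alone. Among the 32 genes with no Pdgfra+ peak they lay before 4 (12.5%). In the sequences shown they were found in *Nanog*, *Zfp42* and *Sox2*, with the first letter at positions -75, -185 and -99 from the RefSeq TSS. *Sox2* is not among the 24, which were counted from GENCODE starts.

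**Figure D5:**
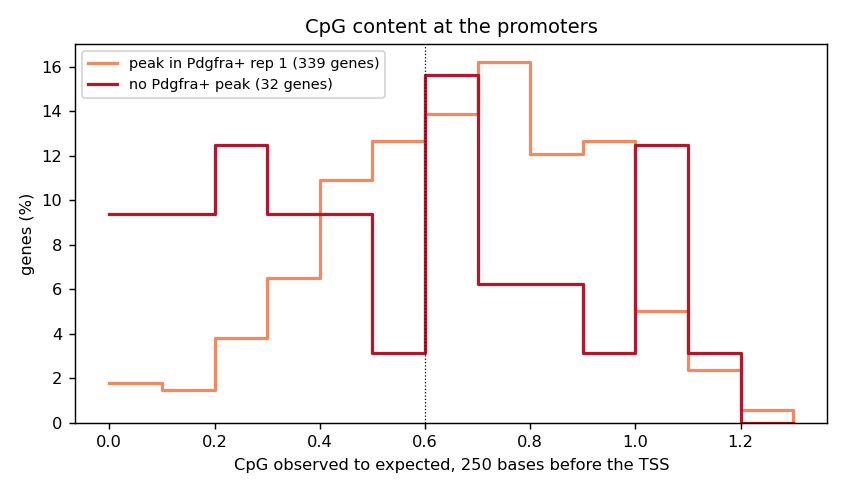
Share of genes (y axis, %) by observed to expected CpG ratio of the 250 bases before the TSS (x axis, bins of 0.1; median over a gene's TSS), for the 32 genes with no Pdgfra+ peak and the 339 with a peak in Pdgfra+ replicate 1. The dotted line marks 0.6; 10 of the 32 genes lie under 0.3.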

How the data were processed

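H3K4me3 CUT&Tag peaks of 4 Oct4+, 3 DP and 3 Pdgfra+ nEnd libraries were analysed. Per the submitters' processing notes, bcl2fastq 2.19.1, Bowtie2, SAMtools 1.12, deepTools, SEACR and bedtools 2.26.0 were used with the mm10 build. The authors called peaks with SEACR (stringent, against IgG) and deposited for each peak its total signal and its highest coverage, as unscaled coverage, and consensus peaks by DiffBind. The consensus lists were rebuilt exactly as peaks joined over libraries and present in at least 2 (7860 of 7860 for Oct4+ replicates 1, 2 and 4, 8101 of 8101 for DP and 7781 of 7781 for Pdgfra+ nEnd). Depth is unknown, and intervals cover counting error only.

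TSS were 54374 starts of protein-coding transcripts in GENCODE M21 (GRCm38), and 1 bp of overlap marked a region. Percentiles of Oct4+ replicates 1, 2 and 4 and DP replicates 1 to 3 were compared by limma 3.58.1 (R 4.3.3) with Benjamini-Hochberg adjustment over 6654 regions. The study describes its replicates as biological, and the labels do not say whether they were separate cultures, so p-values measure the spread between these libraries. On simulated data of the same 6654 regions, 41 of 100 shifts of 20 points and 82 of 100 of 40 points were recovered, with 5 of 6454 unchanged regions called. Named regions were those of listed genes, the 8 with the highest lowest percentile, the 6 widest, the 6 with the largest called difference in each direction and those nearest each threshold. The regions and lists were chosen with earlier results of these data known. Alternatives changed the promoter window, the required presence or overlap, peak numbers, rank measure, ties and libraries. Tables were computed in Python 3.11.15 (with scipy 1.17.1, pandas 2.3.3 and numpy 2.4.6) and drawn in matplotlib 3.10.9. Other marks were not analysed here, and results at a few genes are not reported.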

Additional observations from a re-analysis of the deposited data

Results flagged for a closer look

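The library left out of the Oct4+ list, Oct4+ replicate 3, had peaks at 91 of the 332 regions. It was given a closer look because it is data outside the main comparison, and *Nanog*, *Sox2*, *Esrrb*, *Nodal*, *Gdf3*, *Tdh* and *Zfp42* were among the regions it marked.

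Of 27 named regions, 3 had 1 of the 4 Oct4+ libraries far from the other 3 by Dixon's test, which flags about 1 in 20 groups by chance. In each case it was replicate 3, which was the lowest. The percentile of total signal was 88.3 at *AC124108.1* and *Lemd1*, against 99.2 to 99.5 in the others, 84.4 at *Spry4*, against 96.4 to 98.4, and 94.6 at *Zfp42*, against 97.6 to 98.0. Replicate 3 had 3477 peaks, against 4887 to 9144 in the other Oct4+ libraries, and the part of this in the lower percentiles was not tested.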

How the results depend on the processing

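The number of regions depended on how presence was defined. It was 333 (383 genes) with 2500 bp windows on each side, 332 (370 genes) where the region had to contain the TSS, 332 with the Oct4+ list rebuilt from all 4 libraries, and 335 (379 genes) with all transcripts of protein-coding genes. It was 648 (752 genes) where consensus peaks had to cover 50% of the region, and 19 (21 genes) with a peak in every Oct4+ and DP library of the lists and in no Pdgfra+ library. Without any Pdgfra+ peak it was 29 (32 genes), a choice made after seeing the data. With 3477 peaks from each library it was 223 (289 genes), of which only 6 genes were shared. Of the 332 regions, 92 were then in the Oct4+ list alone, 235 in no list (26 and 2 of the 29) and 5 (among them *Esrrb*, *Ltbp4*, *Marcks* and *Spry4*) still in the Oct4+ and DP lists only. Leaving out 1 library at a time gave 156 to 1120 regions and 184 to 1263 genes. The share with a peak in Oct4+ replicate 3 was 94.7% among the 19 regions.

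The count higher in Oct4+ nEnd (207) was 97 by highest coverage, 240 by normal scores, 81 among regions with a peak in all 6 libraries, 208 with Oct4+ replicates 1 to 4 and 150 to 204 without 1 library. Of all regions tested, 6.57%, 18.7%, 17.1%, 16.8% and 10.8% to 17.4% were higher in Oct4+ nEnd in these fits. After seeing the data, it was also computed among regions with a peak in all 7 libraries (58, and 18.6% of all), among those with no Pdgfra+ peak (29) and with missing peaks at percentile 0 (143, and 14.4%). Toward DP nEnd it was 0 to 1 without 1 library (10.2% to 18.1% of all regions tested) and 1 with missing peaks at 0 (15.5% of all). With a replicate block over Oct4+ replicates 1 to 4, 185 were higher in Oct4+ nEnd (12.4% of all regions tested) and 0 in DP nEnd (11.5% of all). The labels give no shared batch, and the deviations of same-numbered libraries correlated at 0.22, -0.037 and 0.086, so the numbers were not taken to pair the samples. For single regions, 321 of 337 values stayed on the same side of the threshold with the same sign, 11 were no longer past it (7 at *Gbx2*, the others at *Etv4*, *Slc7a7*, *Ltbp4* and *Utf1*), and 2, both at *Fgfr2*, passed it toward DP nEnd. *Twist1* changed sign, to -0.34 on normal scores, -3.9 without Oct4+ replicate 4 (range -3.9 to 4.84 over the libraries left out) and -3.4 with missing peaks at 0. Where another cause is not given by the construction of the alternative, it was not tested.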
